A study of Mus musculus with 80 samples.

Results

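The genes described here are 10 members of the glycolytic enzyme families whose isoenzymes differ between cell types of the mouse brain: the hexokinases Hk1, Hk2 and Hk3, the phosphofructokinase subunits Pfkl, Pfkm and Pfkp, the phosphofructokinase regulator Pfkfb3, the pyruvate kinase Pkm and the lactate dehydrogenase subunits Ldha and Ldhb. They were chosen by gene symbol, and all 10 were found among the 15919 genes of the table that compares sorting methods and among the 16000 genes of the table that compares cell preparations. Brain RNA came from Cx3cr1-NuTRAP mice (labelled Cx3cr1(Jung)-cre/Ert2+;NuTRAP+). All groups were given tamoxifen (100 mg per kg) at about 3 months of age, after which the ribosomes of Cx3cr1-expressing cells carry an eGFP tag. Cx3cr1 is expressed by microglia and also by macrophages at the borders of the brain, so the tag marks both. From each sample the RNA of the whole lysate (Input) and the RNA pulled down with the tagged ribosomes by translating ribosome affinity purification (TRAP) were sequenced.

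The sort comparison held 48 libraries from 14 mice. Tissue (brain tissue lysed without making a suspension, n = 4) and Cell (an unsorted suspension made by warm papain digestion, n = 4) came from the same 4 mice. The suspensions of other mice were sorted with CD11b beads (autoMACS, n = 4), with beads followed by a cartridge sorter (autoMACS to Tyto, n = 3), with the cartridge sorter alone (Tyto, n = 5) or with a droplet sorter (FACSAria, n = 4). The preparation comparison held 32 libraries from 12 mice: the Tissue group of the same 4 mice, Cell without and Inhibitor with actinomycin D, triptolide and anisomycin during digestion (the same 4 mice for both), and Dounce, a cold mechanical preparation from 4 further mice (n = 4 for each group). Because both comparisons use the same Tissue mice, their Cell and Tissue contrasts are not independent of each other.

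Glycolysis splits glucose into pyruvate in the cytosol. Hexokinases trap glucose as glucose 6-phosphate, phosphofructokinase commits the sugar to the pathway and is activated by the fructose 2,6-bisphosphate that Pfkfb3 makes, pyruvate kinase makes pyruvate, and lactate dehydrogenase interconverts pyruvate and lactate. The isoenzymes catalyse the same step with different regulation: Hk1 is the general hexokinase of brain, Hk2 is an inducible form that also binds mitochondria, and Hk3 is found mainly in myeloid cells. Phosphofructokinase is a tetramer of L (liver), M (muscle) and P (platelet) subunits. Lactate dehydrogenase is a tetramer of A subunits, which favour lactate formation, and B subunits, which favour pyruvate.

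In the mm10 coordinates deposited with the counts, Hk1 lies at chr10:62268855-62379908, Hk2 at chr6:82725027-82774454, Hk3 at chr13:55005985-55021385, Pfkl at chr10:77986949-78009796, Pfkp at chr13:6579874-6648724, Pfkfb3 at chr2:11471431-11553929 and Ldhb at chr6:142490249-142507943, all on the minus strand. Pfkm at chr15:98092589-98132447, Pkm at chr9:59656368-59679375 and Ldha at chr7:46845804-46855627 lie on the plus strand. The values count reads over a whole gene, so the M1 and M2 splice forms of Pkm cannot be told apart. Ldha has processed pseudogenes in the annotation, and how the counting split reads between near-identical copies makes its level uncertain.

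Promoters were read from RefSeq on GRCm38.p6 as the 250 bases before and 50 after each annotated start, which gave 17 starts for the 10 members. They were searched on both strands for the PU box GAGGAA, the core bound by the myeloid factor PU.1, and for ACGTG and GCGTG, the cores bound by hypoxia-inducible factors. GAGGAA was found at 7 of the 17 starts and in 28.3% of all 32851 promoters, ACGTG at 9 of 17 and in 19.6%, and GCGTG at 9 of 17 and in 32.4%. At least a single hypoxia core stood at 14 of 17 starts and in 43.8% of all promoters. These are matches of letters and not shown sites. Starts of 1 gene can overlap, so counts over starts are not counts of genes. The PU box stood only at starts of Hk1, Hk3, Pfkfb3 and Pfkm. Every Pfkm start held it, and the match at chr15:98108404-98108433 was counted at more than 1 of them. The following windows, of 30 bases each and read on the strand of the gene, come from members with large differences between Tissue and the sorted fractions and from Ldha, which was called in no contrast of the sort comparison. The capitals mark the match or its reverse complement.
Hk1, chr10:62340535-62340564, minus strand: gccctaatctccGAGGAAggggtgtggctc
Hk2, chr6:82774489-82774518, minus strand: aatgagcacatcCACGTcactgtccggggc
Hk3, chr13:55021578-55021607, minus strand: tcatgatggcccTTCCTCttaggctcctac
Pfkfb3, chr2:11502125-11502154, minus strand: acccttctctccACGTGaaagggggctggg
Pfkfb3, chr2:11502307-11502336, minus strand: ccaagcacagatGAGGAAagtggctggaat
Pfkp, chr13:6648822-6648851, minus strand: ggccccgcccttGCGTGagtcccgcccatc
Pfkm, chr15:98108404-98108433, plus strand: tcttaaggggtgGAGGAAgaggaggagaga
Ldha, chr7:46845745-46845774, plus strand: ggcccagcctacACGTGggttcccgcacgt
The PU box stood in windows of Hk3 and Pfkfb3, which were higher in microglial fractions, and of Hk1 and Pfkm, which were lower.

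Levels are in CPM, counts put on a common library size with trimmed mean of M-values (TMM) scaling within each table, and levels of different genes were compared only per length (FPKM). A gene was called when edgeR's quasi-likelihood test gave a Benjamini-Hochberg adjusted p below 0.1 over all genes tested and the fold was over 2, which are the thresholds of the study. Library totals ran from 7129464 to 20168116 counts in the sort table and from 2471448 to 14650287 in the preparation table, in which Dounce-TRAP was shallowest (2471448 to 4724538). The labelled fractions were checked on marker genes. The summed level of 8 microglial markers was 239.8 to 376.2 CPM in Tissue-Input, 5329 to 6735 CPM in Tissue-TRAP, 33869 to 35897 CPM in Cell-TRAP and 23273 to 49959 CPM over the sorted libraries. Neuronal markers (7 of 8 listed genes in the table) summed to 5191 to 5492 CPM in Tissue-Input and to 4890 to 5717 CPM in Tissue-TRAP, so the pull-down from tissue was not depleted of them. They summed to 381.6 to 909.5 CPM in Cell-Input, 110.1 to 313.4 CPM in Cell-TRAP and 3.35 to 9.31 CPM in sorted TRAP libraries. In these bulk samples, fewer cells of a type and less RNA per cell cannot be told apart.

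Between Cell and Tissue in the Input, 5 of the 10 members were called, 2 higher and 3 lower, against 46% of all genes tested. In the TRAP fraction 7 were called, 3 higher and 4 lower, against 54.3% of genes. TRAP against Input called 2 members in Tissue (background 12.3%) and 5 in Cell (48.1%). The difference between those pull-down effects, tested as an interaction of preparation and fraction, was called for 4 members (37.9%). The mean of the 4 sorting methods against Cell called 6 members in Input (51.8%) and 2 in TRAP (24.4%), and against Tissue in TRAP it called 7 (62.8%). With only 10 members these counts lay near the background, and they differed more in which isoenzyme of a family moved in which direction. The comparisons share their Tissue or Cell libraries and are given side by side.

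Hk1 was the main hexokinase transcript of brain tissue and the lesser one in microglial fractions. Its level in Tissue-Input was 410.8, 387.5, 394.6 and 409.6 CPM in the 4 mice, and in Cell-TRAP it was 101.9, 95.56, 100.4 and 108.4 CPM. Every Cell library lay below every Tissue library. Hk1 fell from Tissue to Cell by 1.35 ± 0.16 on the log2 scale in Input (SE, adjusted p = 7.33e-08, edgeR quasi-likelihood) and by 1.68 ± 0.073 in TRAP (adjusted p = 1.30e-16). Sorted suspensions were lower than Cell by a further 1.31 ± 0.12 in Input (adjusted p = 2.78e-10), but its difference between sorted and Cell TRAP libraries was only -0.17 ± 0.057 (adjusted p = 0.0125, under the 2-fold threshold). The group means of the sorted libraries were 57.4 to 102.5 CPM. Neuronal markers fell in the same comparisons. In Cell against Tissue 7 of 7 tested markers were lower in both fractions (median log2 change -2.93 in Input and -4.90 in TRAP). Astrocyte and oligodendrocyte markers were higher there in Input (6 of 8 and 8 of 8), and in TRAP 4 of 8 and 2 of 8 were lower. In sorted against Cell Input, all tested neuronal, astrocyte, oligodendrocyte and endothelial markers were lower. The part of these cell types in the result was not tested.

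Hk2 behaved in the opposite way. In Tissue-Input it was low, at 3.90, 8.07, 5.66 and 5.92 CPM, and the pull-down from the same lysates gave 61.04, 55.53, 71.03 and 62.33 CPM. The ranges were far apart, and the TRAP to Input difference in Tissue was 3.35 ± 0.15 on the log2 scale (a 10.2-fold rise, adjusted p = 2.16e-12). Cell-TRAP held 510.1, 440.7, 478.3 and 495 CPM. Hk2 rose from Tissue to Cell by 3.67 ± 0.14 in Input (adjusted p = 3.62e-16) and by 2.96 ± 0.084 in TRAP (adjusted p = 6.13e-20). In Input the sorted suspensions exceeded Cell by another 2.62 ± 0.12 (adjusted p = 8.27e-16), whereas in TRAP the gain was 0.45 ± 0.063 and under 2-fold (adjusted p = 1.37e-06). Sorted group means ran from 496.1 to 721.5 CPM.

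Hk3 had the lowest level per length of the members in Tissue-Input (0.386 FPKM) and the largest fold between pull-down and Input. Tissue-Input held 1.37, 1.45, 1.02 and 1.35 CPM, which is 22 to 31 counts a library, and Tissue-TRAP 31.36, 24.38, 37.19 and 34.04 CPM. Hk3 thus rose 23.5-fold with the pull-down in Tissue (4.56 ± 0.17 on the log2 scale, adjusted p = 1.99e-13) and 7.18-fold in Cell (2.84 ± 0.13, adjusted p = 1.60e-12), and the pull-down effect was smaller in Cell by 1.71 ± 0.22 (interaction, adjusted p = 3.22e-06). From Tissue to Cell it rose by 3.94 ± 0.12 in Input (adjusted p = 2.35e-17) and by 2.18 ± 0.10 in TRAP (adjusted p = 6.24e-16). The 8 microglial markers, all higher in each of these comparisons, had median log2 changes of 4.404 for TRAP against Input in Tissue, 2.72 in Cell, 4.49 for Cell against Tissue in Input and 2.68 in TRAP. The 6 border-associated macrophage markers were also all higher in each, with medians of 4.23, 2.83, 4.01 and 2.62. Of the 8 endothelial markers, 7 were higher in the Tissue pull-down (median 1.36), 0 were higher and 1 was lower in the Cell pull-down (-0.67), and all were higher in Cell than Tissue in Input (4.47) and TRAP (2.38). The 8 neutrophil and monocyte markers were all higher in Cell than Tissue in Input (4.29), and in TRAP 2 of 3 tested were higher (1.61). In the Tissue pull-down 2 of 7 tested were higher and 3 lower (-1.14), and in the Cell pull-down 0 were higher and 4 lower (-4.74). The part of these cell types in the rises of Hk2 and Hk3 was not tested. Hk2 and Hk3 are both on the list of microglial genes that the study used, so they are not evidence independent of that list.

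**Figure D1:**
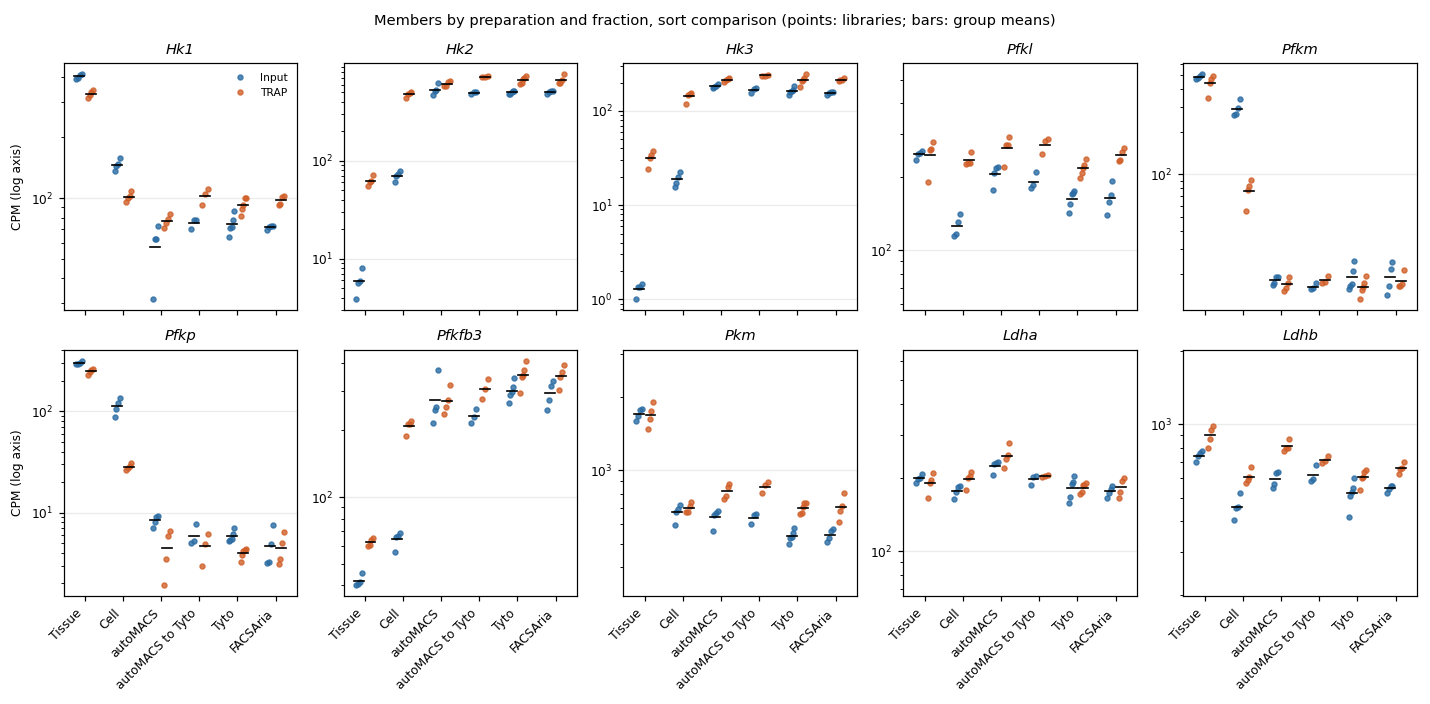
Level of each of the 10 genes in the 48 libraries of the sort comparison (TMM-scaled CPM, log axis), by preparation, with Input and TRAP libraries in separate colours and 1 point a library. Hk2 and Hk3 climb from Tissue-Input (means 5.89 and 1.29 CPM) to the sorted libraries, Pfkm and Pfkp descend, and Ldha stays within a narrow band.

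Per length, the hexokinase transcripts of Tissue-Input were 98.3% ± 0.42 Hk1 (SD, n = 4), 1.25% Hk2 and 0.46% Hk3. The Tissue pull-down still held 76.8% ± 2.2 Hk1. Cell-Input had 62.5% ± 2.8 Hk1, Cell-TRAP 14.1% ± 0.55, and the sorted groups 7.42% to 10.1%. In Cell-TRAP Hk2 made up 57.5% and Hk3 28.5%, and in sorted groups 57.6% to 59.8% and 30.4% to 33.8%. The summed level of the family did not follow these shares: it was 84 FPKM in Tissue-Input, 48.3 FPKM in Cell-Input, 149 FPKM in Cell-TRAP and 151 to 221 FPKM in sorted groups. The shares are a description of the isoenzyme mixture and carry no test.

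**Figure D2:**
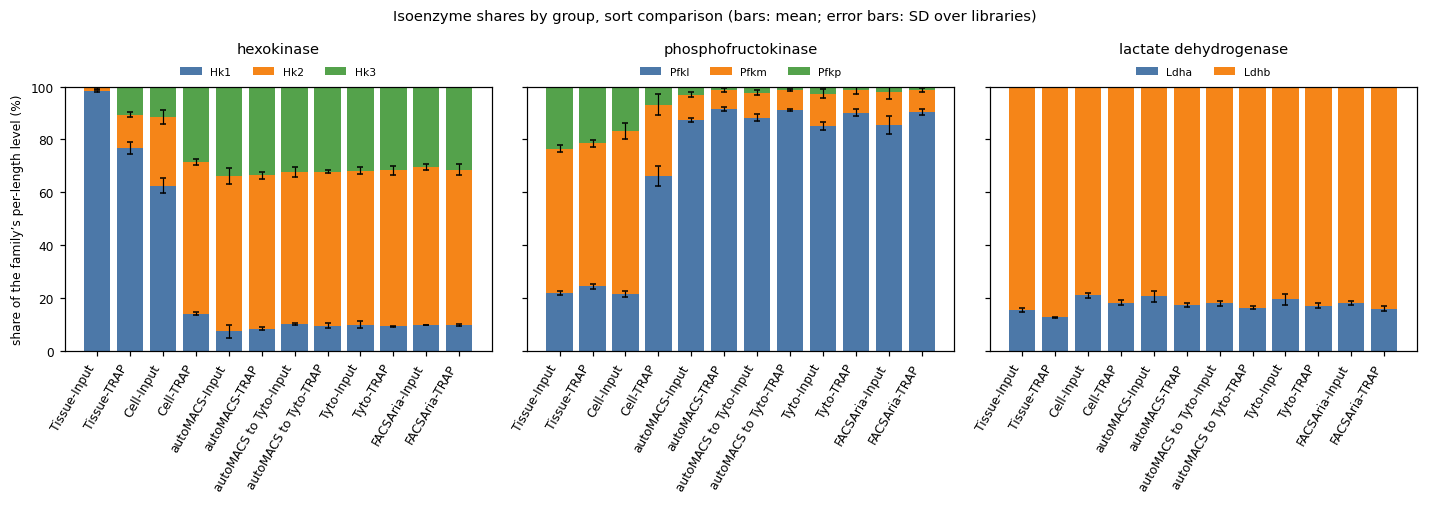
Share of each isoenzyme in its family per length (percent of the summed FPKM, mean over libraries) for the hexokinases, the phosphofructokinase subunits and the lactate dehydrogenase subunits, by group of the sort comparison. Hk1 drops from 98.3% in Tissue-Input to 14.1% in Cell-TRAP, Pfkl climbs from 22.1% to 66.1%, and Ldhb holds 79.01% to 87.32% in every group.

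Of the phosphofructokinase subunits, the muscle and platelet forms fell to low levels in microglial fractions while the liver form did not. Pfkm stood at 508.6, 474.4, 492.2 and 482.7 CPM in Tissue-Input and at 496.4, 347.1, 472.8 and 439.6 CPM in Tissue-TRAP. Cell-TRAP held 77.23, 92.10, 55.70 and 83.24 CPM, below every Tissue library. Pfkm fell from Tissue to Cell by 2.498 ± 0.13 in TRAP (log2, adjusted p = 5.96e-15). Its Input difference was -0.66 ± 0.13 (adjusted p = 1.00e-04), short of 2-fold, and the pull-down effect became more negative in Cell than in Tissue by 1.79 ± 0.18 (interaction, adjusted p = 1.85e-07). Sorted suspensions were lower than Cell 19.01-fold in Input and 4.57-fold in TRAP (adjusted p = 1.33e-20 and 3.70e-16), with group means of 16.17 to 19 CPM.

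Pfkp followed Pfkm and went lower. Tissue-TRAP held 256, 227.9, 247.5 and 260.6 CPM and Cell-TRAP 30.60, 28.62, 26.43 and 27.69 CPM. The fall was 1.32 ± 0.16 on the log2 scale in Input (adjusted p = 1.20e-07) and 3.12 ± 0.20 in TRAP (adjusted p = 2.82e-13), the interaction being -1.75 ± 0.15 (adjusted p = 1.79e-08). In the 16 sorted TRAP libraries Pfkp lay between 1.92 and 6.53 CPM, or 32 to 121 counts a library. Against Tissue-TRAP, sorted TRAP libraries were 57.2-fold lower for Pfkp, 25.8-fold lower for Pfkm and 3.62-fold lower for Hk1 (adjusted p = 2.31e-22, 3.32e-24 and 2.88e-21). The neuronal marker list had a median log2 change of -11.0 in that comparison (7 of 7 lower). Astrocyte markers had -8.52 (8 of 8 lower), oligodendrocyte markers -6.59 (6 of 8 lower) and endothelial markers -2.825 (5 of 8 lower, 1 higher). In sorted against Cell Input, all tested neuronal, astrocyte, oligodendrocyte and endothelial markers were lower (medians of -6.01, -7.81, -7.69 and -5.18). The part of these cell types in the falls of Pfkm and Pfkp was not tested. Pfkp is on the list of macrophage genes that the study used, but in these libraries it was lower, not higher, in the fractions rich in microglial markers.

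Pfkl, the liver subunit, was not called between Tissue, Cell and sorted suspensions in the TRAP fraction of the sort comparison. It held 276.8, 190.4, 260.2 and 258 CPM in Tissue-TRAP and 228.5, 225.9, 228.1 and 251.7 CPM in Cell-TRAP, and these ranges overlapped (difference -0.06 ± 0.094 log2, adjusted p = 0.543). The mean of the sorts differed from Tissue in TRAP by -0.003 ± 0.074 (adjusted p = 0.965), and the F test over the sorting methods gave an adjusted p of 0.0437 with a widest gap of 0.32, under 2-fold. In the preparation comparison Cell and Tissue differed in TRAP by -0.31 ± 0.12 (adjusted p = 0.0290, under 2-fold), and in Dounce-TRAP, at 100.3, 118.9, 136.2 and 161.6 CPM, Pfkl fell from Tissue by 1.13 ± 0.13 (adjusted p = 2.22e-07). In Input, Pfkl was lower in Cell than in Tissue by 0.88 ± 0.098 (adjusted p = 4.04e-08), just under 2-fold. That call turned on the fit, for with the mouse as a block, or with only the compared groups in the model, the difference was -1.01 and passed. Within Cell, Pfkl was higher in TRAP than in Input by 0.81 ± 0.098 (adjusted p = 5.58e-07, under 2-fold), and the interaction was 0.86 ± 0.14 (adjusted p = 3.08e-05), which without mouse 946 was 1.03 and was called. Per length Pfkl made up 22.1% ± 0.73 of the 3 subunits in Tissue-Input, 66.1% ± 3.9 in Cell-TRAP and 85.1% to 91.4% in sorted groups, with Pfkm at 54.4%, 26.9% and 7.30% to 12.3% and Pfkp at 23.5%, 6.96% and 1.30% to 3.09%. The family sum fell along the same order, from 300 FPKM in Tissue-Input to 94.9 FPKM in Cell-TRAP and 51.3 to 79.7 FPKM in sorted groups.

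Pfkfb3, the kinase that makes the activator of phosphofructokinase, was the member whose pull-down effect grew most from Tissue to Cell. Its level was 41.50, 45.68, 40.56 and 40.14 CPM in Tissue-Input and 60.27, 64.09, 65.61 and 60.82 CPM in Tissue-TRAP. Although these ranges did not overlap, the TRAP to Input difference in Tissue was 0.53 ± 0.080 on the log2 scale and under 2-fold (adjusted p = 3.40e-05). In Cell it rose by 1.61 ± 0.080 (adjusted p = 3.27e-12), the interaction being 1.08 ± 0.11 (adjusted p = 2.39e-07). Cell-TRAP held 213.1, 189.1, 213.6 and 218.9 CPM. Pfkfb3 rose from Tissue to Cell by 1.75 ± 0.10 in TRAP (3.36-fold, adjusted p = 4.30e-14), less than the microglial marker median of 2.68, and by 0.72 ± 0.13 in Input (adjusted p = 2.44e-05, under 2-fold). Sorted Input libraries exceeded Cell-Input by 1.84 ± 0.11 (adjusted p = 2.91e-13), and sorted group means ran from 230.7 to 355.5 CPM. The study lists Pfkfb3 among genes that differed between its groups, so its choice here is not independent of these data.

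Pkm had the highest level per length of the members in Tissue-Input (653 FPKM, against 570 FPKM for Ldhb) and fell with dissociation in both fractions. It held 1757, 1774, 1668 and 1589 CPM in Tissue-Input, 1893, 1473, 1745 and 1624 CPM in Tissue-TRAP and 713.6, 674.7, 672 and 736.4 CPM in Cell-TRAP. Pkm fell by 1.24 ± 0.088 in Input (log2, adjusted p = 1.62e-11) and by 1.25 ± 0.078 in TRAP (adjusted p = 1.60e-13), and the interaction was 0.03 ± 0.12 (adjusted p = 0.820). The pull-down was not called, at -0.06 ± 0.087 in Tissue and -0.03 ± 0.087 in Cell (adjusted p = 0.603 and 0.763). In Cell the mean level was 699 CPM in TRAP and 671 CPM in Input, so the sign of that difference turns with the scaling. Sorted groups lay at 538.5 to 855.4 CPM, and against Cell the sorted TRAP libraries differed by 0.11 ± 0.061 (adjusted p = 0.148).

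Neither lactate dehydrogenase subunit was called in the sort comparison. Ldha held 206.4, 189.7, 197.7 and 200 CPM in Tissue-Input and 202.4, 178.8, 200.2 and 211 CPM in Cell-TRAP, and these ranges overlapped. Cell and Tissue differed by -0.07 ± 0.075 in Input (adjusted p = 0.411) and 0.07 ± 0.078 in TRAP (adjusted p = 0.394). The direction of the TRAP value depends on the scaling: with DESeq2 size factors the median of all genes moved from -0.01 to -0.34 and Ldha from 0.07 to -0.26, so relative to the other genes Ldha stood a little above the median under both. The same scaling moved the median of all genes from -0.14 to -0.48 for sorted against Tissue TRAP and from -0.09 to -0.30 for sorted against Cell Input. Ldhb held 758.9, 773.1, 740.2 and 698.3 CPM in Tissue-Input and 571.9, 588.6, 608.4 and 666.1 CPM in Cell-TRAP. Its Cell to Tissue differences were -0.60 ± 0.10 in Input and -0.55 ± 0.068 in TRAP (adjusted p = 2.63e-05 and 6.76e-08), both under 2-fold. Per length Ldhb made up 84.5% ± 0.84 of the 2 subunits in Tissue-Input, 81.7% ± 0.98 in Cell-TRAP and 79.4% to 84.0% in sorted groups, so the B form was the larger part in every fraction.

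Ordered by group mean over the 12 groups of the sort comparison, the members fell into 3 kinds of pattern. Pfkp and Pfkm ran from Tissue through Cell-Input and Cell-TRAP to the sorted groups: for Pfkp each of the first 4 groups was separate from the next, and for both genes the 8 sorted groups overlapped with their neighbours. Hk1 had the same start, Tissue-Input above Tissue-TRAP above Cell-Input without overlap, after which the other groups overlapped. Hk2 and Pfkfb3 ran the other way, with all sorted groups and Cell-TRAP in a run of overlapping neighbours at the top, Cell-Input and Tissue-TRAP overlapping each other beneath it, and Tissue-Input separate at the bottom. Hk3 differed from Hk2 in that Tissue-TRAP stood above Cell-Input without overlap. By group mean its sorted TRAP groups also stood above autoMACS-Input, and autoMACS-Input above the other sorted Input groups. For Hk3, autoMACS-Input (176.4 to 192.5 CPM) was separate from its neighbours in the order. It overlapped Tyto-TRAP (180.8 to 244.7 CPM) and Tyto-Input (149.3 to 183.2 CPM). For Pfkl the order mixed tissue and sorted groups, and neighbours overlapped except at the bottom. There Cell-Input (114.3 to 140.2 CPM) was separate from its neighbour Tyto-Input but overlapped FACSAria-Input (139.5 to 191.9 CPM). Pkm, Ldha and Ldhb had 2, 1 and 1 gaps between neighbours, for Pkm below Tissue and above the FACSAria and Tyto Input groups, and for Ldha below the autoMACS groups. The lower Pkm gap and the Ldha gap held between neighbours only. For Pkm, autoMACS-Input (563.1 to 677.6 CPM) overlapped FACSAria-Input (507.7 to 572.9 CPM) and Tyto-Input (500.2 to 581.1 CPM). For Ldha, Cell-TRAP reached 211 CPM and overlapped autoMACS-Input (205.8 to 232 CPM).

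Once cells had been sorted and with all mice kept, no member passed 2-fold between Input and TRAP over the mean of the sorts, or between sorting methods. Few calls are expected of any 10 genes at the backgrounds below, so the absence of calls does not set the members apart. TRAP against Input over the mean of the sorts called 0 members by edgeR and 0 by DESeq2 (background 10.9%, of which 2 genes were higher and 1381 lower). By edgeR, 9 of 10 had an unadjusted p under 0.05 and 9 an adjusted p below 0.1, and all were under 2-fold. The largest member difference was 0.55 ± 0.047 for Pfkl (log2, adjusted p = 5.31e-11). Hk2 and Hk3 differed by 0.48 ± 0.037 and 0.48 ± 0.036, against 3.35 and 4.56 in Tissue. The sorting methods shared mice: autoMACS and autoMACS to Tyto had 3 in common, and so had Tyto and FACSAria, so the 16 sorted libraries of a fraction came from 10 mice. An F test over the 4 methods, which counts these libraries as independent and has no block for the mouse, called 0 members in Input by edgeR and 0 by DESeq2, with 4 at an unadjusted p under 0.05 (7.42% of genes called), and likewise 0 and 0 in TRAP, with 6 at an unadjusted p under 0.05 (4.17%). By edgeR, 4 members in Input and 6 in TRAP had an adjusted p below 0.1, all under 2-fold. In TRAP the widest gap was that of Ldha, 0.44 on the log2 scale (adjusted p = 3.07e-04). The widest gap between sorting methods was that of Pfkp in Input, 0.78 on the log2 scale (adjusted p = 0.0615), and without mouse 991 it was 1.08 and was called.

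In the preparation comparison, Cell against Tissue called the same number of members as in the sort comparison, 5 in Input (background 44.7%) and 7 in TRAP (53.2%), with Hk2 at 2.94 ± 0.16, Hk3 at 2.32 ± 0.12, Pfkfb3 at 2.00 ± 0.13, Hk1 at -1.81 ± 0.13, Pfkm at -2.75 ± 0.17, Pfkp at -3.43 ± 0.16 and Pkm at -1.30 ± 0.082 on the log2 scale in TRAP. The Cell mice were new and the Tissue mice were not. Pfkl in Input was -0.96 ± 0.093 (adjusted p = 1.77e-08), again just short of 2-fold, and it passed with DESeq2 size factors (-1.02) and without mouse 1361 (-1.03).

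Adding transcription and translation inhibitors to the digestion moved none of the 10 genes past the thresholds. Inhibitor against Cell called 0 members in Input by edgeR and 0 by DESeq2, with 0 at an unadjusted p under 0.05 (background 0.311%), and 0 by both tools in TRAP (background 0.638%), where 1 member, Pfkfb3, had an unadjusted p under 0.05. Pfkfb3 in Cell-TRAP held 249.5, 271.9, 317.9 and 330.2 CPM in mice 156, 157, 1361 and 1362, and in Inhibitor-TRAP 229.5, 210.3, 260.6 and 251.7 CPM in the same order. It was lower with inhibitors in each of the 4 mice, the ranges overlapped, and the difference was -0.29 ± 0.12 on the log2 scale (adjusted p = 0.437). Against Tissue in TRAP, the Inhibitor group called 7 members (52.8%), with Pfkfb3 at 1.71 ± 0.13, Hk2 at 2.80 ± 0.16, Hk3 at 2.24 ± 0.12 and Pfkp at -3.59 ± 0.16. None of the 10 had separate Cell and Inhibitor ranges in either fraction. Separate ranges were not counted over all genes, so this is a description and does not set the 10 apart.

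After cold Dounce homogenisation, Pfkp and Pfkfb3 did not differ detectably from Tissue in the Input, while the 8 other members fell or rose by over 2-fold. Dounce against Tissue called 8 members in Input, 2 higher and 6 lower (background 50.1%), and all 10 in TRAP, 3 higher and 7 lower (50.3%). Pfkp was 340, 354.6, 328.2 and 319.8 CPM in Dounce-Input and 330.5, 364.9, 354.5 and 381.4 CPM in Tissue-Input, and the ranges overlapped. Its fitted difference was 0.12 ± 0.16 log2 (adjusted p = 0.511) and so has the opposite sign to the listed levels (means of 335.6 and 357.8 CPM), because the fit scales the Input libraries on their own and the levels are scaled over the whole table. The same holds for Pfkfb3 (0.13 ± 0.11, adjusted p = 0.278, with means of 51.5 and 54.3 CPM), so neither direction is given. Pkm, Ldhb and Ldha fell by 2.61 ± 0.14, 2.37 ± 0.17 and 2.14 ± 0.12 in the same libraries (adjusted p = 3.05e-12, 2.58e-10 and 5.62e-12). Hk1 fell by 2.17 ± 0.13, Pfkm by 1.62 ± 0.15 and Pfkl by 1.59 ± 0.095, while Hk2 and Hk3 rose by 1.76 ± 0.26 and 2.49 ± 0.28. Pfkp therefore made up 49.1% ± 1.4 of the phosphofructokinase transcripts per length in Dounce-Input against 22.5% ± 1.2 in Tissue-Input. Neutrophil and monocyte markers, 8 of 8 higher with a median of 8.09, summed to 194 to 1244 CPM in Dounce-Input and 1.67 to 3.59 CPM in Tissue-Input, and the neuronal markers to 2715 to 3047 and 7046 to 7255 CPM. The study reported its lowest average RNA integrity for Dounce-Input, and needed an entire brain for that group but less for the others. Read coverage leaned more to the transcript end in its Tissue and Dounce groups than in its Cell groups. The part of these cell types, of RNA integrity and of coverage in these values was not tested.

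Dounce and Cell, the cold and the warm preparation from different mice, differed in the pull-down as well. In TRAP, Dounce against Cell called 4 members, 1 higher and 3 lower, against 28.7% of genes. Pfkp in Dounce-TRAP held 100.3, 88.57, 127.7 and 105.5 CPM and in Cell-TRAP 26.57, 23.45, 25.84 and 22.65 CPM. All 4 Dounce libraries lay above all 4 Cell libraries, and Pfkp rose by 2.10 ± 0.16 (log2, adjusted p = 5.43e-09). Ldha was 121.5, 102, 118.4 and 105.2 CPM in Dounce-TRAP against 248.8 to 270.3 CPM in Cell-TRAP and fell by 1.19 ± 0.085 (adjusted p = 2.75e-09). Pkm fell by 1.08 ± 0.083 (adjusted p = 6.75e-09) and Hk3 by 1.07 ± 0.12 (adjusted p = 6.56e-07), which without mouse 1362 was -0.99 and was no longer called. Ldhb, at -0.95 ± 0.16 (adjusted p = 6.29e-05), was called without mouse 1362 (-1.06) and without mouse 182 (-1.10). Hk2 and Pfkfb3 were lower in Dounce-TRAP by 0.77 ± 0.15 and 0.68 ± 0.12, under 2-fold, and still stood above Tissue-TRAP by 2.17 ± 0.16 and 1.32 ± 0.13. The summed neuronal markers were 1005 to 1797 CPM in Dounce-TRAP and 81 to 183.6 CPM in Cell-TRAP (6 of 7 higher), the 8 endothelial markers were all lower in Dounce-TRAP, and the 8 microglial markers were called in neither direction (median -0.13). The study also reported more coverage bias towards the transcript end in Dounce-TRAP than in Cell-TRAP. The part of these cell types and of coverage in the result was not tested.

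**Figure D3:**
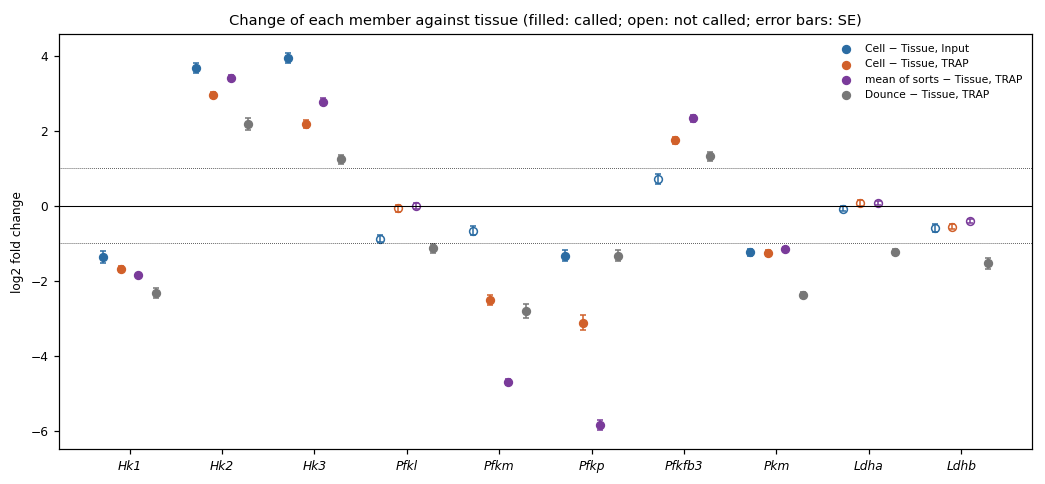
Log2 fold change against Tissue for each of the 10 genes (x axis), from edgeR, for Cell in Input and in TRAP, for the mean of the sorts in TRAP and for Dounce in TRAP, with bars of 1 standard error, filled points for called genes and dotted lines at the 2-fold threshold. Hk2 and Hk3 lie above 0 in all 4 comparisons (2.96 and 2.18 for Cell in TRAP), Hk1, Pfkm, Pfkp and Pkm lie below it, Pfkp reaches -5.84 in sorted TRAP libraries, and Ldha leaves the region near 0 only for Dounce (-1.23).

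**Figure D4:**
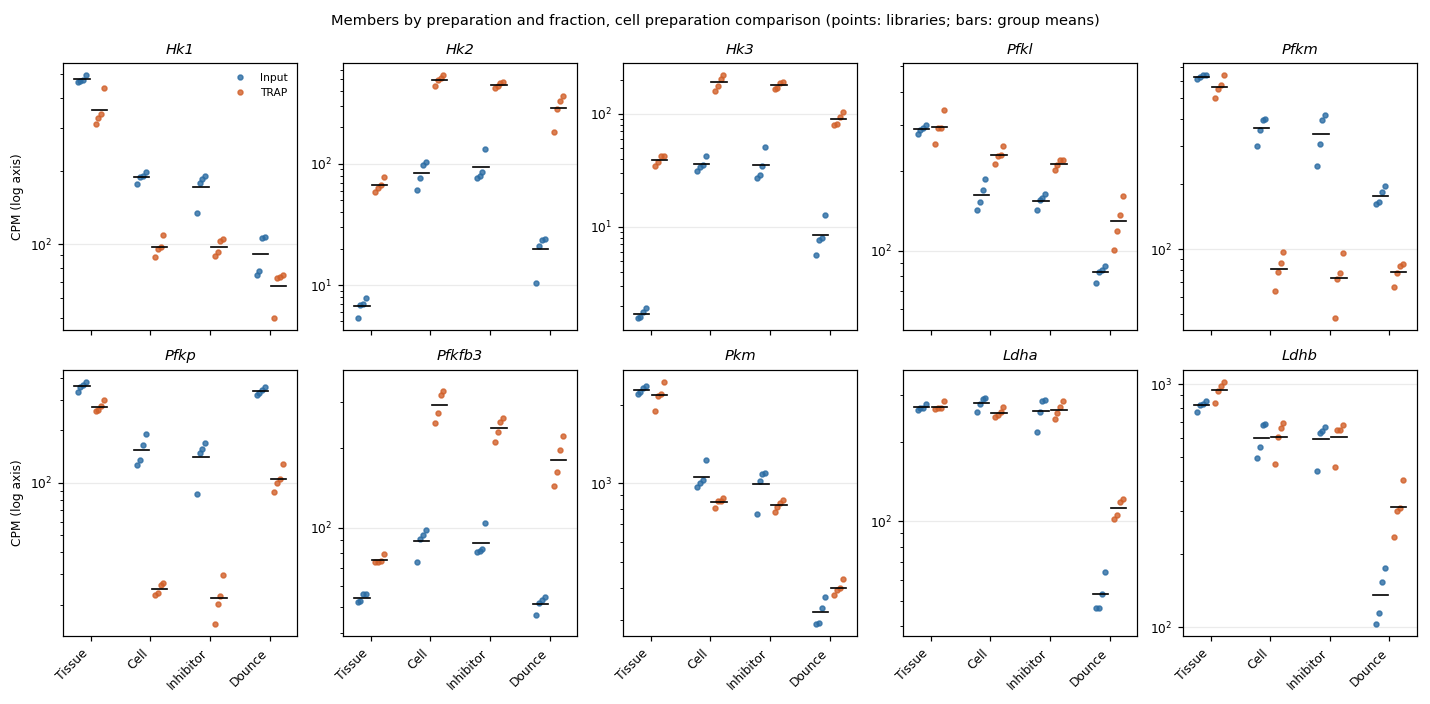
Level of each of the 10 genes in the 32 libraries of the preparation comparison (TMM-scaled CPM, log axis), by preparation, with Input and TRAP libraries in separate colours and 1 point a library. Cell and Inhibitor libraries overlap in every panel, and in the Pfkp panel Dounce-TRAP (88.6 to 127.7 CPM) stands above Cell-TRAP (22.65 to 26.57 CPM).

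The other genes of the pathway, 35 listed glucose and lactate carriers, glycolytic enzymes and pyruvate dehydrogenase regulators, also split by isoenzyme and carrier. Between Cell and Tissue, 9 of 33 tested rose and 8 fell in Input (46% of all genes called), and 7 of 32 rose and 17 fell in TRAP (54.3%). The glucose carrier Slc2a1, of endothelium and glia, rose by 4.24 in Input and 2.69 in TRAP on the log2 scale, and the microglial fructose carrier Slc2a5 by 4.16 in Input. The neuronal enolase Eno2 fell by 3.42 in Input and 5.03 in TRAP. In the pull-down from Tissue 2 of 33 were higher and 1 lower, with Slc2a5 at 4.52, the monocarboxylate carrier Slc16a3 at 1.67 and the hexokinase-like Hkdc1 at -1.18. In Cell the counts were 6 higher and 9 lower, and the interaction called 3 higher and 10 lower. Of all genes, 12.3% were called in the Tissue pull-down, 48.1% in the Cell pull-down and 37.9% in the interaction.

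Of the listed genes, the astrocyte aldolase Aldoc had the largest difference between sorted and Cell libraries, -7.25 in Input and -7.41 in TRAP. In Input 7 of 33 were higher and 13 lower (51.8% of all genes called), and in TRAP 1 of 32 was higher and 5 lower (24.4%). Against Tissue, sorted TRAP libraries had 6 of 32 higher and 18 lower, with Eno2 at -10.3 and Aldoc at -9.27. After sorting, 4 of 31 were lower in TRAP than in Input (among them Aldoc at -2.66, the pyruvate dehydrogenase kinase Pdk4 at -2.25 and Eno2 at -1.70) and 0 were higher. The F test across sorts called 2 in Input, with Aldoc among them, and 3 in TRAP, with Pdk4 and Aldoc among them. Of all genes, 62.8% were called for sorted against Tissue TRAP and 10.9% for TRAP against Input after sorting. The F tests called 7.42% in Input and 4.17% in TRAP.

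In the preparation comparison, Cell against Tissue called 8 higher and 8 lower of 32 in Input and 6 higher and 18 lower of 31 in TRAP. The shares over all genes were 44.7% and 53.2%. Inhibitor against Cell called 0 of 32 in Input and 0 of 31 in TRAP by edgeR, with 0 and 3 at an unadjusted p under 0.05, and Inhibitor against Tissue in TRAP called 7 higher and 18 lower. Dounce against Tissue called 9 higher and 14 lower of 32 in Input, where the largest changes were falls (log2 changes of -3.23 for Pgk1, -3.03 for Tpi1, -2.93 for Pgam1 and -2.88 for the aldolase Aldoa), and 6 higher and 20 lower of 31 in TRAP. Dounce against Cell in TRAP called 5 of 31 higher (among them Eno2 at 2.16 and Hkdc1 at 1.67) and 7 lower, Slc2a1 at -3.21. Of all genes, Inhibitor against Cell called 0.311% in Input and 0.638% in TRAP, and Inhibitor against Tissue in TRAP 52.8%. Dounce against Tissue called 50.1% in Input and 50.3% in TRAP, and Dounce against Cell in TRAP 28.7%.

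The genes whose pattern was most like that of each member were named by Pearson's r of the mean log2(CPM + 1) over the 12 groups of the sort comparison, among 14878 genes and with no test, since the groups share mice, depth and cell makeup. Hk2 went with Pros1 and Mcm3 (r = 0.999 for both) and Hk3 with Btk and Capn3 (0.999 for both). Pfkm went with Gpr161 and Astn2 (0.999 for both) and Pfkp with Auts2 and Cbln1 (0.998 for both). Hk1 was nearest to Ppme1 (0.994) and Tmem201 (0.988), Pfkfb3 to Pdcd1 and Numb (0.997 for both), and Pkm to Aldoart1 (0.995) and Uqcrc2 (0.991). Aldoart1 is an aldolase copy close in sequence to Aldoa, so its counts are uncertain. Ldhb was nearest to Nsfl1c (0.980) and Hax1 (0.974). Pfkl (Prkar1a, 0.951, and Wdr8, 0.949) and Ldha (Nme3, 0.855, and Apip, 0.847) had the weakest likeness to any gene.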

How the data were processed

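The authors made stranded poly(A) libraries, aligned the reads to mm10 in Strand NGS with strand and duplicates taken into account, and kept genes with more than 5 reads in all samples of at least 1 group. The values used are the deposited raw columns, which are expected counts: only 33.2% of values in the sort table and 20.8% in the preparation table are whole numbers, so they were rounded before testing. The deposited log2 columns, normalised with DESeq2 and baselined by the authors, were not used. The 2 tables were normalised separately, so levels were compared only within a table.

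Tests used edgeR 4.0.16 (quasi-likelihood, TMM, R 4.3.3) with limma 3.58.1, on genes with more than 5 counts in all samples of at least 1 compared group, over all such genes, and called at an adjusted p below 0.1 and over 2-fold. The error of a log2 fold change is its size over the root of F. Input and TRAP were fitted separately except where compared. DESeq2 1.42.0 was the other tool. The scripts were tested on simulated data. Alternatives were DESeq2 size factors, no filter, 10 counts in every sample, only the compared groups, each mouse left out, an earlier table of 24 of the libraries, and the mouse as a replicate block. FPKM used exon lengths of GENCODE vM21. All raw columns belonged to a sample.

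The number of a sample is its mouse, and same-numbered samples come from 1 animal. The deviations of same-mouse libraries from their group means correlated weakly (mean r of 0.040 in sort Input, 0.078 in sort TRAP and 0.18 in preparation TRAP). Within-group library correlations were 0.959 to 0.997 (sort) and 0.921 to 0.993 (preparation), and 0 pairs were identical. Sorted groups came from other mice than Cell, so sorting and mouse cannot be told apart. In the preparation comparison the Dounce mice, the Tissue mice and the mice shared by Cell and Inhibitor were all different. There preparation and mouse cannot be told apart, except between Cell and Inhibitor. The Dounce libraries are also absent from the earlier table.

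The members, the list of 35 other glycolysis genes and the marker lists of 7 cell types were chosen with earlier results of these data known. All members are named. Of the other glycolysis genes, up to 4 a comparison are given with values, the called ones with the largest change (1 of these is not reported here), and for likeness the 2 genes with the highest r. For Cell against Tissue in Input, 6 of 8 astrocyte, 8 of 8 oligodendrocyte, 8 of 8 endothelial, 6 of 6 border-associated macrophage and 8 of 8 neutrophil and monocyte markers were higher.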

Additional observations from a re-analysis of the deposited data

Results flagged for a closer look

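The change of the pull-down effect from Tissue to Cell differed from 0, past the thresholds and by a test of the interaction itself, for Hk3 (-1.71 on the log2 scale), Pfkm (-1.79), Pfkp (-1.75) and Pfkfb3 (1.08). Of all genes tested, 32.7% were called lower and 5.23% higher (median -0.333), so negative values were common. Microglial (8 of 8, median -1.73), neuronal (7 of 7, -1.93), astrocyte (8 of 8, -2.25) and oligodendrocyte markers (8 of 8, -2.93) were also called lower.

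In groups of 4 or 5 mice, 10 of 180 sets of member values had a mouse set apart from the others by Dixon's test on log2(CPM + 1). Chance gives about 1 in 20, so about as many as were found. In the sort table these were Pfkl in Cell-TRAP (mouse 949, 251.7 CPM against 225.9 to 228.5 CPM in the others), Pfkm in FACSAria-TRAP (mouse 991, 21.1 CPM against 16.2 to 16.9 CPM) and Pkm in autoMACS-Input (mouse 72, 563.1 CPM against 657.5 to 677.6 CPM). The last is the shallowest library of its table. In the preparation table, mouse 181 was low for Hk1 in Dounce-TRAP (50.06 CPM against 72.58 to 74.95 CPM) and for Hk2 in Dounce-Input (10.47 CPM against 20.97 to 23.85 CPM). Mouse 946 was high in Tissue-TRAP for Pfkfb3 (79.1 CPM against 73.99 to 74.64 CPM) and Ldha (285.1 CPM against 265.7 to 268.8 CPM). Mouse 1362 was high for Pfkfb3 in Inhibitor-Input (104.4 CPM against 80.7 to 83.07 CPM) and low for Ldhb in Inhibitor-Input (439.2 CPM against 631.9 to 664.2 CPM) and Inhibitor-TRAP (456.4 CPM against 646 to 682.8 CPM). The Ldhb level of mouse 1362 was also the lowest of the 4 in Cell-Input (495.1 CPM against 550.1 to 687 CPM) and Cell-TRAP (469.1 CPM against 609.2 to 692.2 CPM), so it was lowest in all 4 libraries of this mouse. No cause was tested.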

How the results depend on the processing

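No called member changed direction under any alternative run. Every reversal was of a value under 2-fold and uncalled in both runs (log2 below). Some reversed values still had a low adjusted p. By the DESeq2 test it was 8.12e-04 for Ldha in Cell against Tissue (sort TRAP) and 5.99e-06 for Ldha in sorts against Tissue (TRAP). With DESeq2 size factors and the DESeq2 test alike, Ldha became -0.258 (Cell against Tissue, sort TRAP), -0.013 (sorts against Cell, TRAP), -0.272 (sorts against Tissue, TRAP) and -0.021 (Inhibitor against Tissue, TRAP), Ldhb -0.131 (sorts against Cell, Input), Pkm 0.019 (TRAP against Input, Cell), Pfkm -0.041 (TRAP against Input, sorts) and Hk1 -0.002 (Inhibitor against Cell, TRAP). With 10 counts in every sample the same contrasts gave Ldha -0.289, -0.056, -0.345 and -0.195, Ldhb -0.236, Pfkm -0.075 and Hk1 -0.002, and also Pfkl -0.026 (sorts against Cell, Input) and Pfkm 0.057 (Dounce against Cell, TRAP). Without a filter Pfkl was 0.004 (sorts against Tissue, TRAP), Pkm 0.108 (TRAP against Input, Cell) and Ldha -0.030 (Inhibitor against Tissue, TRAP). Ldha in preparation Cell against Tissue TRAP was 0.057 with only the compared groups and 0.040 in the earlier table. Causes were not tested.

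With the mouse as a replicate block, Pkm became 0.060 (TRAP against Input, Cell) and Pfkl passed in Cell against Tissue Input at -1.014. The block changed no other member call, and over all genes it moved the Inhibitor against Cell TRAP calls from 94 to 150.

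Leaving out each mouse gave, in TRAP against Input, Pkm -0.096 to 0.009 and Pfkl -0.103 to 0.050 in Tissue, Pkm -0.057 to 0.120 in Cell, and Pfkm -0.067 to 0.057 in the sorts. For the interaction it gave Ldhb -0.004 to 0.281 and Pkm -0.065 to 0.216, and without mouse 946 Pfkl was called (1.03). In TRAP it gave Ldha -0.043 to 0.085 (sorts against Cell), Pfkl -0.102 to 0.031 (sorts against Tissue), Ldha -0.026 to 0.038 (Inhibitor against Tissue) and Pfkm -0.151 to 0.049 (Dounce against Cell). For Inhibitor against Cell it gave in Input Pfkfb3 -0.089 to 0.024, Hk2 -0.003 to 0.320, Ldhb -0.114 to 0.013, Hk3 -0.158 to 0.052 and Pfkm -0.224 to 0.005, and in TRAP Ldhb -0.023 to 0.029, Pkm -0.054 to 0.002 and Hk1 -0.033 to 0.043. The F test across sorts in Input called 0 to 1 members.

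With 10 counts in every sample, which tests fewer genes, Dounce against Cell in TRAP called 2 members in place of 4, because Pkm (-0.972) and Hk3 (-0.964) missed 2-fold. Calls over all genes then fell from 7248 to 3247 and 8126 to 4381 (sort Cell against Tissue, Input and TRAP), 8162 to 3079 and 3651 to 440 (sorts against Cell), 9393 to 4761 (sorts against Tissue), 1169 to 304 and 624 to 173 (F tests), 1913 to 1108, 7486 to 4732 and 1383 to 261 (TRAP against Input in Tissue, Cell and sorts), 5902 to 3778 (interaction), and among preparations from 7043 to 4565 and 7826 to 4770 (Cell against Tissue, Input and TRAP), 49 to 32 (Inhibitor against Cell, Input), 7776 to 4624 (Inhibitor against Tissue), 7407 to 4675 (Dounce against Tissue, TRAP) and 4228 to 1892 (Dounce against Cell). The F tests called 1917 and 1148 genes by DESeq2 and 484 and 394 with only the compared groups, and TRAP against Input in sorts called 2788 without a filter. The share of higher calls moved from 46.2% to 35% (Cell against Tissue, sort TRAP, DESeq2 size factors; 35.4% by DESeq2), from 1.06% to 11.1% (Inhibitor against Cell, TRAP, earlier table) and from 72.1% to 83% (Dounce against Cell, TRAP, 10 counts). The Dounce-TRAP libraries are the shallowest, and whether their depth widened its errors was not tested. No fit of the F tests with the mouse as a block was run.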
